A study of Homo sapiens with 10 samples.

Results

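The genes described here encode the subunits of the mitochondrial respiratory chain and of ATP synthase. They were chosen by symbol among protein-coding genes: the NDUFA, NDUFB, NDUFC, NDUFS and NDUFV genes of complex I, SDHA to SDHD of complex II, CYC1 and the UQCR genes of complex III, the COX4 to COX8 genes of complex IV, the ATP5F1, ATP5M and ATP5P genes of complex V, and the 13 mRNAs of the mitochondrial genome. This gave 98 of the 61533 genes in the tables, 85 in the nucleus and 13 in mitochondrial DNA, and 2 readthrough genes were left out. Complex I had 36 nuclear and 7 mitochondrial genes, complex II 4 and 0, complex III 9 and 1, complex IV 18 and 3, and complex V 18 and 2. NDUFA4, named after complex I, was counted with complex IV, where its protein is now placed, and so was COX7A2L, a factor that joins complexes III and IV.

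Total RNA was sequenced from 5 libraries of T24, an established human bladder cancer cell line, and 5 libraries of T24R2, a resistant derivative of T24 obtained by serial desensitization with cisplatin, collected on day 3. T24R2 is 1 derived line. The methods of the study say that its medium held cisplatin, whereas the labels list the same drug-free medium for both lines. The line and exposure to the drug cannot be told apart in this comparison. The sources do not say whether replicates were separate cultures, so p-values measure the spread between these libraries, which may be technical.

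The respiratory chain moves electrons from NADH, through complex I, and from succinate, through complex II, to ubiquinone, then through complex III and cytochrome c to complex IV, which passes them to oxygen. Complexes I, III and IV pump protons, and complex V uses the gradient to make ATP. Complex II is also an enzyme of the citric acid cycle and is encoded by nuclear genes alone, whereas the other complexes combine nuclear subunits with a core made inside the organelle. Mitochondrial mRNAs are cut from long transcripts of both DNA strands, so neighbouring genes begin as parts of 1 RNA.

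Total counts were 9257843 to 10840954 per library, and the replicates of each line differed by more than counting noise, with a chi-square of 2.15 to 9.27 for each degree of freedom. Values are given as CPM (counts scaled to a common library size, with TMM factors), and as mean ± SD over 5 libraries. Of the epithelial markers, KRT7, KRT8 and KRT18 were present in both lines, at 1370 CPM, 1009 CPM and 690.9 CPM in T24R2. Other epithelial markers were near 0 in T24R2: KRT19 was at 267 CPM in T24 and at most 0.260 CPM in a T24R2 library, GATA3 at 22.1 and at most 0.446 CPM, and EPCAM at 4.45 and at most 0.197 CPM. PPARG was at 75.9 and 26.2 CPM and UPK2 at 9.90 and 2.74 CPM, and KRT20, UPK1B, UPK3A and CDH1 did not exceed 3 counts in a library. The summed levels of 14 epithelial markers were 4943 to 5675 CPM in T24 and 3012 to 3217 CPM in T24R2, mostly from KRT7, KRT8 and KRT18. Those of 5 mesenchymal markers were 682 to 727 CPM and 4153 to 4698 CPM, mostly from VIM, at 482 and 3963 CPM. CDH2 was at 178 and 318 CPM and ZEB1 at 41.1 and 46.0 CPM. COL1A1 was lower in T24R2, at 6.45 and 1.03 CPM, and COL1A2 did not exceed 1 count in a library. The summed levels of 3 blood markers reached 2.69 CPM at most. The sum of 3 endothelial markers, nearly all CDH5, was 225 to 278 CPM in T24 and 1.604 to 2.495 CPM in T24R2. Their part in the results was not tested. T24R2 replicate 3 stood apart for the respiratory genes: it was the lowest of the 5 T24R2 libraries for 45 of 77 tested nuclear subunit genes (58.4%, against 23.8% of all genes tested), while its mitochondrial mRNAs were the most abundant, at 2.57% of counts against 1.98% to 2.16% in the other T24R2 libraries. T24R2 replicate 1 leaned the other way for the nuclear genes. It was the highest of its line for 40 of the 77 (51.9%, against 23.2% of all genes tested). T24 replicate 2 was the highest of its line for 31 (40.3%, against 21.8%).

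The share of subunit mRNAs called between the lines was below that of genes in general. Of the 90 subunit genes with enough counts to be tested, 22 were called (edgeR quasi-likelihood test, adjusted p under 0.05 and absolute log2 fold change over 0.5), or 24.4%, against 51.4% of the 16181 genes tested. Of these, 12 were higher in T24R2, or 13.3% against 24.9% of all genes, and 10 were lower, or 11.1% against 26.5%. In RNA from whole cultures, fewer expressing cells and less RNA per cell cannot be told apart. With no minimum fold change, 69 of the 90 passed, 33 upward and 36 downward, beside 75.5% of all genes, and 47 of these had a change under the minimum. The median absolute log2 fold change was 0.35 over the subunits and 0.54 over all genes tested, and the signed medians were -0.02 and 0.01. When only genes averaging 100 counts or more entered the fit, 19 of 88 subunit genes (21.6%) and 46.7% of all genes were called. The 5 libraries of one line lay entirely above or below those of the other for 47 subunit genes (52.2%), against 61.2% of all genes. Library scaling matters for the balance of directions: without TMM scaling the median of all genes moved from 0.01 to 0.18 and the subunits split into 24 higher and 6 lower.

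**Figure D1:**
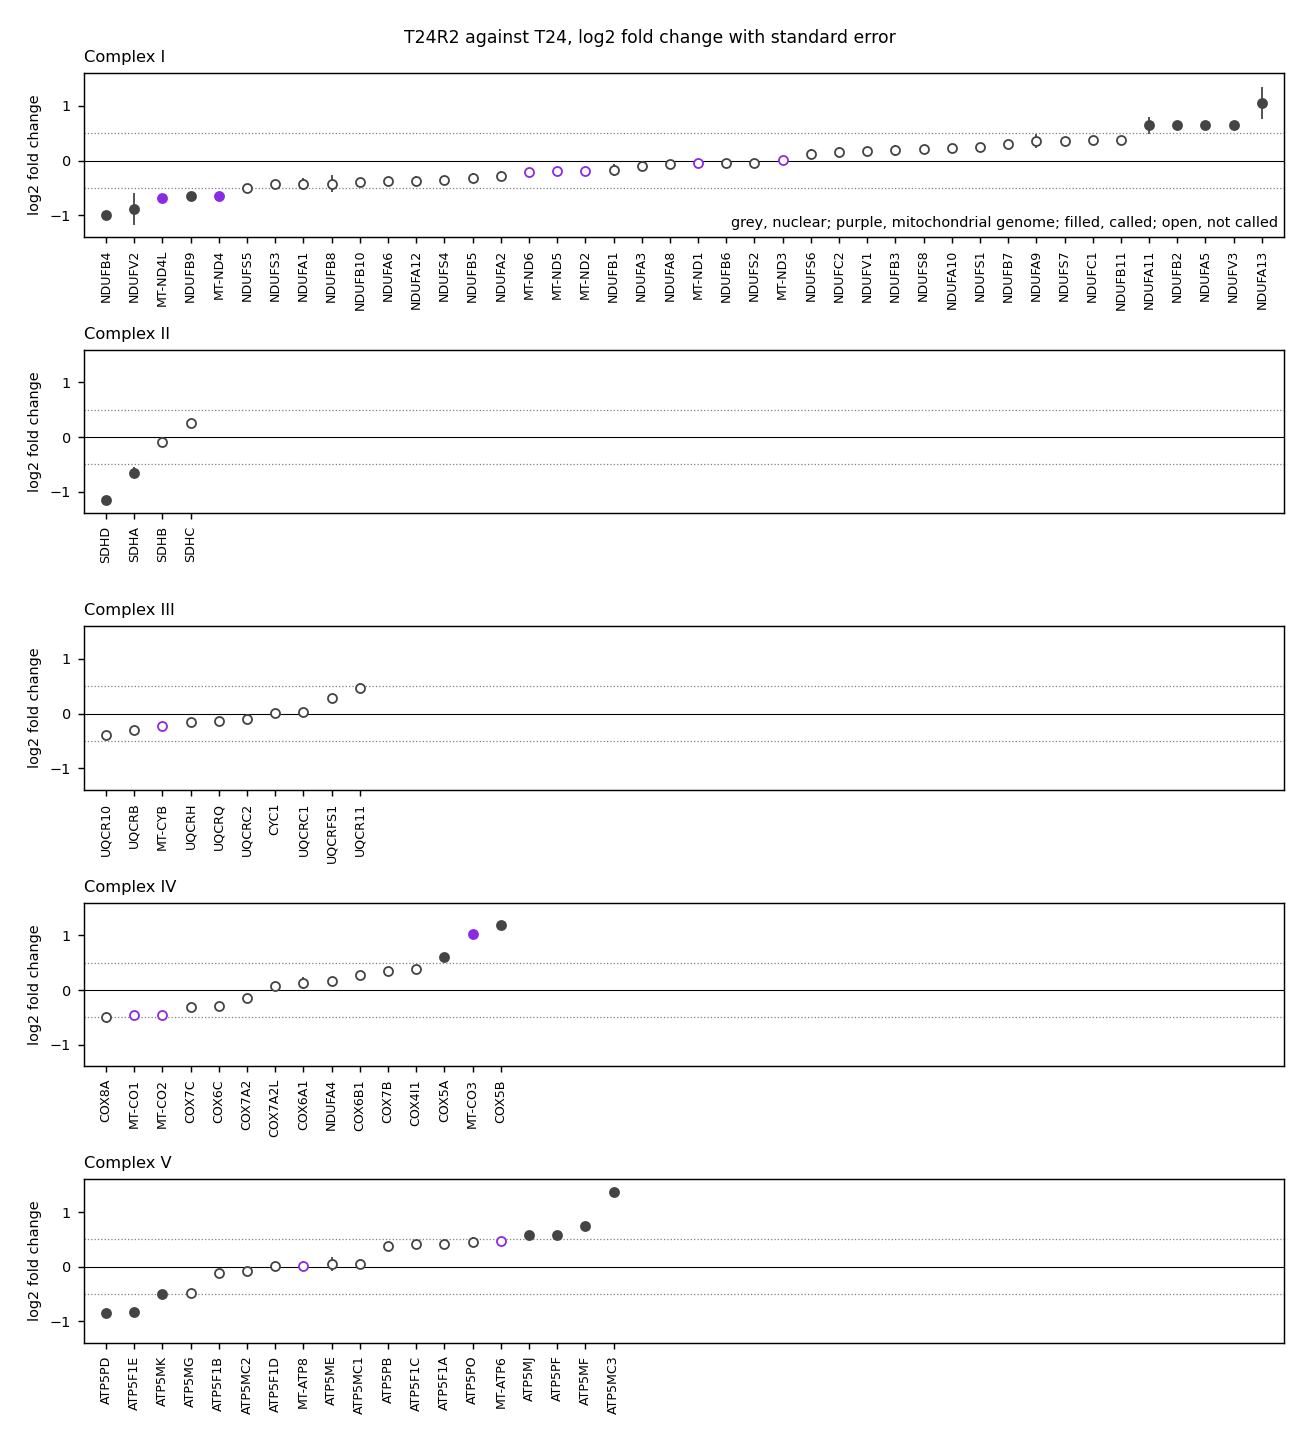
The vertical axis gives the log2 fold change of T24R2 against T24 for each of the 90 tested subunit genes, with standard errors as bars and dotted lines at the minimum of 0.5. Filled points are called genes, purple points mitochondrial genes. Most points lie inside the dotted lines, no complex III gene is filled, and the extremes are ATP5MC3 at 1.36 and SDHD at -1.15.

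In complex I, the NADH dehydrogenase, 5 of 35 tested nuclear genes rose, 3 fell and 27 were not called, with a median of -0.04. Of the 7 subunits that hold the flavin and the iron-sulfur clusters, only NDUFV2 was called in this fit, and the other called genes encode accessory subunits. NDUFB4, an accessory subunit of the membrane arm (ENSG00000065518.8, chr3:120596328-120602507 on hg38), had 99.3, 92.9, 92.8, 86.8 and 87.3 CPM in the T24 libraries. In the T24R2 libraries it had 51.0, 43.95, 48.1, 46.7 and 41.0 CPM. The lines were far apart, and NDUFB4 fell by 0.99 on the log2 scale (SE 0.06, adjusted p = 7.1e-18; exact two-sided permutation p = 0.00794, the smallest that 5 against 5 libraries can give). NDUFB9 fell by 0.65, from 174 ± 1.56 to 111 ± 8.57 CPM, a call lost without TMM scaling. It shares exon bases with MTSS1 on the opposite strand, from which it cannot be separated here.

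NDUFV3, a small subunit beside the flavin-binding protein (ENSG00000160194.18, chr21:42879644-42913304), was at 27.6 to 31.8 CPM in T24 with a median of 29.8, and at 43.7 to 49.8 CPM in T24R2 with a median of 45.5. Its log2 fold change was 0.66 (SE 0.07, adjusted p = 1.1e-10), with no overlap of the lines. NDUFB2, NDUFA5 and NDUFA11 rose by 0.64 to 0.65, but the NDUFA11 libraries overlapped (11.7 ± 1.97 against 18.3 ± 5.25 CPM). The most abundant nuclear complex I mRNA per kilobase of annotated exon was NDUFS5, with 210 CPM per kilobase in T24 and 149 in T24R2. This rank depends on the annotation: NDUFS5 has 548 annotated exon bases, whereas NDUFB9, with more CPM in both lines, has 16591. NDUFS5 had 106 to 125 CPM in T24 and 77.1 to 85.0 CPM in T24R2, which did not overlap, but its log2 fold change of -0.495 stayed just under the minimum and passed it without T24 replicate 4 or 5 (-0.52 and -0.53) or T24R2 replicate 1 (-0.51).

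NDUFA13 and NDUFV2 were called at very low counts. NDUFA13, an accessory subunit (ENSG00000186010.19, chr19:19515736-19529054), had 0.623 to 2.40 CPM in T24 and 2.43 to 4.23 CPM in T24R2, between 6 and 43 counts a library, with a log2 fold change of 1.05 (SE 0.29, adjusted p = 0.00135). NDUFV2, a core iron-sulfur subunit (ENSG00000178127.13, chr18:9102630-9134345), had 1.68 to 2.81 CPM in T24 and 0.768 to 1.97 CPM in T24R2, between 8 and 26 counts. Its libraries overlapped, and its log2 fold change was -0.89 (SE 0.29, adjusted p = 0.00622). NDUFA7, another accessory subunit, had 2 to 12 counts and was not tested. Annotated genes on the same strand cover 21.0% of the exon bases of NDUFA13, 28.4% of NDUFV2 and 32.5% of NDUFA7, and fragments that touch more than 1 gene are not counted by default, so these levels are not those of the whole mRNA. NDUFV2 also has 1 annotated pseudogene, at 3.05 CPM in T24 and 2.02 CPM in T24R2, or 135% of the level of NDUFV2 over all libraries. How far uniquely mapped reads separate the gene from this copy was not tested, so the level of NDUFV2 itself is uncertain.

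Complex II, succinate dehydrogenase, had 2 of its 4 mRNAs lower in T24R2, and its other 2 were not called. SDHD, a membrane anchor (ENSG00000204370.13, chr11:112086824-112120016), was the deepest fall of all subunit genes tested. It had 64.2, 62.8, 56.9, 62.3 and 67.6 CPM in the T24 libraries and 29.5, 30.2, 23.5, 30.2 and 28.3 CPM in the T24R2 libraries. Every T24R2 library thus lay below every T24 library, with a log2 fold change of -1.15 (SE 0.07, adjusted p = 1.3e-17). T24R2 replicate 3 was the lowest, and without it the value was -1.08. The other anchor, SDHC, had 54.3 to 67.7 CPM and 71.4 to 75.3 CPM (log2 fold change 0.25, SE 0.06, under the minimum). SDHB, the iron-sulfur subunit, was at 83.7 ± 6.002 and 78.9 ± 2.28 CPM (adjusted p = 0.165). Per kilobase of exon, SDHB was the most abundant of the 4 mRNAs in T24, at 36.0 CPM per kilobase beside 32.4 for SDHC, and SDHC in T24R2, at 38.6 beside 34.0 for SDHB. The ratio of SDHD to SDHB was 0.632 to 0.819 in T24 and 0.296 to 0.391 in T24R2.

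SDHA, the flavoprotein that oxidizes succinate (ENSG00000073578.18, chr5:218303-257082), had 24.5, 27.2, 28.1, 25.9 and 24.9 CPM in T24 and 17.3, 18.7, 13.5, 14.6 and 18.6 CPM in T24R2. It fell by 0.66 (SE 0.10, adjusted p = 1.1e-07), with no overlap, but by 0.49, under the minimum, without TMM scaling. SDHA has near-identical copies, and uniquely mapped reads cannot fully separate them. The pseudogenes SDHAP1 and SDHAP4 had 30.0 ± 3.04 and 32.1 ± 4.47 CPM in T24 and 15.8 ± 1.596 and 14.3 ± 1.52 CPM in T24R2, so each was counted at least as often as SDHA in T24. SDHAP3 went the other way at a low level, from 2.66 ± 0.551 to 4.13 ± 1.09 CPM (log2 fold change 0.63). SDHAP2, with 100% of its exon bases covered by genes on the same strand, had 0 counts. SDHA and its 4 pseudogenes together went from 90.9 ± 6.44 to 50.7 ± 3.08 CPM, a log2 ratio of -0.84. The level of SDHA itself is therefore uncertain.

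No mRNA of complex III, which passes electrons from ubiquinol to cytochrome c, was called in either direction. Of its 10 genes, 7 had an adjusted p under 0.05, 2 upward and 5 downward, with log2 fold changes from -0.40 to 0.47. The core proteins UQCRC1 and UQCRC2 were at 201 ± 4.64 and 139 ± 3.76 CPM in T24 and at 205 ± 7.57 and 131 ± 9.86 CPM in T24R2. Cytochrome c1, encoded by CYC1, was at 149 ± 6.75 and 150 ± 11.7 CPM, with adjusted p = 0.745. UQCRH, the hinge protein and the most abundant complex III mRNA per kilobase among the nuclear genes, had 180 to 186 CPM in T24 and 187, 174, 119, 167 and 173 CPM in T24R2. The low value belonged to T24R2 replicate 3. UQCR11, a small subunit, had the highest log2 fold change of the complex, 0.47, and passed the minimum at 0.56 without that library.

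The nuclear genes of complex IV, cytochrome c oxidase, had a median log2 fold change of 0.15, and 2 of 12 tested genes rose and 0 fell. COX5B (ENSG00000135940.7, chr2:97646062-97648383), a subunit on the matrix side, had 75.4, 72.1, 67.6, 73.0 and 71.0 CPM in T24. In T24R2 it had 206, 173, 131, 164 and 149 CPM, all above T24, with the lowest in replicate 3. Its log2 fold change was 1.20 (SE 0.07, adjusted p = 3.5e-18). COX5A, its matrix-side neighbour in the enzyme (ENSG00000178741.12, chr15:74919791-74938083), went from 87.8 ± 5.15 to 133 ± 17.5 CPM, a log2 fold change of 0.60 (SE 0.06, adjusted p = 3.8e-11), again without overlap. COX8A, the smallest nuclear subunit, had 110 to 135 CPM in T24 and 91.2, 107, 57.3, 92.2 and 93.1 CPM in T24R2. Its log2 fold change of -0.49 (adjusted p = 1.8e-06) moved to -0.36 without T24R2 replicate 3, and past the minimum, to between -0.50 and -0.56, without any 1 of 5 other libraries. In T24, COX8A was also the nuclear subunit mRNA with the highest level per kilobase, at 251 CPM per kilobase (178 in T24R2), although a long non-coding RNA on the same strand covers 35.4% of its exon bases.

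Several complex IV subunits exist as a general form and a tissue-restricted form, and both lines expressed the general forms. COX4I1 was at 295 ± 11.8 CPM in T24 and 386 ± 22.5 CPM in T24R2 (log2 fold change 0.39, under the minimum), whereas COX4I2, the form found mainly in lung, had 1 count in 1 T24 library and 0 in the others. COX6A1 was at 39.9 ± 1.78 and 43.7 ± 11.3 CPM, with T24R2 replicate 3 at 25.0 CPM, and the muscle form COX6A2 had 0 counts in all libraries. COX7A2 was at 77.2 ± 2.98 and 69.7 ± 5.62 CPM, and COX7A1, the heart and muscle form, did not exceed 7 counts. COX7B was at 79.0 ± 1.64 and 101 ± 1.79 CPM (log2 fold change 0.35), and COX7B2 and COX8C were at 0 counts. A count of 0 does not exclude a true expected count of up to about 3 in a library.

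COX6B2, a form known from testis, was the exception. It had 20, 9, 12, 11 and 30 counts in the T24 libraries and 0, 3, 1, 5 and 0 in the T24R2 libraries, too few to pass the count filter. The lines did not overlap, and with no count filter the gene was called lower. COX6B1, the general form, was at 78.6 ± 5.90 and 95.2 ± 3.86 CPM, with a log2 fold change of 0.28 (SE 0.05, under the minimum). COX6B2 was 1 of 8 subunit genes not tested, besides COX4I2, COX6A2, COX7A1, COX7B2, COX8C, NDUFA7 and ATP5MGL.

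Complex V, ATP synthase, held the largest rise: 4 of its 17 tested nuclear genes rose, 3 fell and 10 were not called. The rotating ring of subunit c is made from ATP5MC1, ATP5MC2 and ATP5MC3, 3 genes whose mature proteins are the same. ATP5MC3 (ENSG00000154518.10, chr2:175176258-175181710) had 105, 95.7, 94.6, 93.0 and 96.3 CPM in T24 and 274, 264, 204, 257 and 243 CPM in T24R2. The lines did not overlap, and the log2 fold change was 1.36 (SE 0.06, adjusted p = 4.8e-23). ATP5MC1 was at 41.2 ± 6.29 and 42.7 ± 3.16 CPM, and ATP5MC2 at 123 ± 13.3 and 116 ± 7.53 CPM (adjusted p = 0.581 and 0.245). Scaled to annotated exon length, ATP5MC3 made up 31.8% to 37.0% of the mRNA for subunit c in T24 and 54.2% to 60.5% in T24R2, and ATP5MC2 went from 40.1% to 46.5% down to 25.2% to 30.4%. The 3 genes together had 242 to 283 CPM in T24 and 358 to 440 CPM in T24R2.

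ATP5MF, subunit f at the foot of the stalk (ENSG00000241468.8, chr7:99448475-99466186), went from 57.7 ± 3.99 to 97.0 ± 10.6 CPM, with a log2 fold change of 0.75 (SE 0.06, adjusted p = 2.4e-13). ATP5MJ and ATP5PF rose by 0.57 and 0.58. In the opposite direction, ATP5PD, subunit d of the stalk that holds the head still (ENSG00000167863.12, chr17:75038863-75046985), had 128 to 141 CPM in T24 and 71.3 to 80.1 CPM in T24R2. It fell by 0.85 (SE 0.05, adjusted p = 2e-18). ATP5F1E, the epsilon subunit of the central stalk (ENSG00000124172.10, chr20:59025475-59032345), had 251.7, 251, 214, 244 and 236 CPM in T24 and 169, 131, 116, 134 and 124 CPM in T24R2, and fell by 0.83 (SE 0.06, adjusted p = 5.5e-15). ATP5MK, a small membrane subunit, fell by 0.51, and this call was lost without T24 replicate 4 or T24R2 replicate 3 (-0.50 and -0.48, both past the adjusted p but not the minimum), without TMM scaling, with upper-quartile scaling and in the fit of genes averaging 100 counts or more.

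Of the 5 genes of the F1 head and central stalk, ATP5F1E alone was called. ATP5F1B, the beta subunit that makes ATP and the most abundant nuclear complex V mRNA per kilobase, had 426 to 472 CPM in T24 and 407 to 423 CPM in T24R2, with a log2 fold change of -0.12 (SE 0.04). ATP5F1A, the alpha subunit, was at 300 ± 5.29 and 399 ± 17.1 CPM, and ATP5F1C, the gamma subunit, at 108 ± 2.47 and 144 ± 3.49 CPM. Both had a log2 fold change of 0.41, with no overlap of the lines, and both stayed under the minimum. Of the 4 peripheral stalk genes, ATP5PF rose, ATP5PD fell, and ATP5PB and ATP5PO had values of 0.38 and 0.46.

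**Figure D2:**
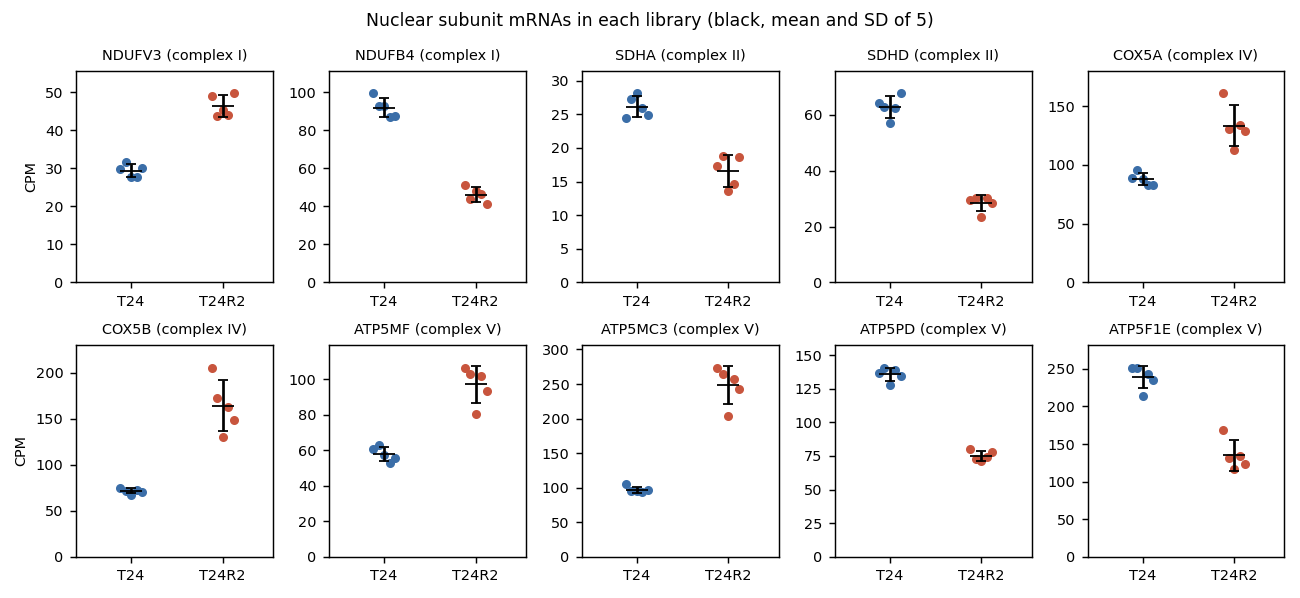
Each panel shows CPM of 1 nuclear subunit gene in the 5 T24 and 5 T24R2 libraries, with black bars for mean and SD and axes that start at 0. The 10 genes were taken from the called genes, and none of them overlaps between the lines. Called genes with overlapping libraries, such as NDUFV2, are not shown. Of all tested subunit genes 52.2% did not overlap, against 61.2% of all genes tested. NDUFV3, COX5A, COX5B, ATP5MF and ATP5MC3 are higher in T24R2, and NDUFB4, SDHA, SDHD, ATP5PD and ATP5F1E are lower.

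The mitochondrial mRNAs did not move as 1 block. Of the 13, MT-CO3 rose, MT-ND4 and MT-ND4L fell and 10 were not called, with a median log2 fold change of -0.20. MT-CO3, a core subunit of complex IV (ENSG00000198938.2, chrM:9207-9990), had 1180, 1203, 1151, 1065 and 1109 CPM in T24 and 2168, 2213, 2628, 2297 and 2337 CPM in T24R2. Its log2 fold change was 1.03 (SE 0.05, adjusted p = 1.6e-22), and 0.99 without T24R2 replicate 3. The other 2 core subunits of the same enzyme had values of the opposite sign: MT-CO1 was at 9058 ± 322 and 6609 ± 879 CPM, and MT-CO2 at 2986 ± 188 and 2180 ± 289 CPM. Both had a log2 fold change of -0.45 with all libraries, under the minimum, and were called lower at -0.53 without T24R2 replicate 3, whose MT-CO1 level of 8108 CPM was the highest of its line. The ratio of MT-CO3 to MT-CO1 counts was 0.124 to 0.128 in T24 and 0.324 to 0.368 in T24R2, replicate 3 included.

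MT-ND4 and MT-ND4L, both proton-pumping core subunits of complex I, share 1 mRNA. MT-ND4 (ENSG00000198886.2, chrM:10760-12137) had 3311 to 3782 CPM in T24 and 2028, 2047, 2837, 2196 and 2229 CPM in T24R2. It fell by 0.64 (SE 0.06, adjusted p = 4.8e-13), by 0.73 without T24R2 replicate 3, and by 0.48, under the minimum, without TMM scaling. MT-ND4L (ENSG00000212907.2, chrM:10470-10766) had 638 to 758 CPM and 379 to 486 CPM and fell by 0.69 (SE 0.05, adjusted p = 4.1e-15). The other complex I genes MT-ND1, MT-ND2, MT-ND3, MT-ND5 and MT-ND6 had log2 fold changes of -0.20 to 0.01, and MT-CYB of complex III had -0.22 (1151 ± 116 and 987 ± 123 CPM). MT-ND1 was at 848 ± 32.6 and 819 ± 67.7 CPM and MT-ND2 at 814 ± 45.1 and 716 ± 47.5 CPM. MT-ND5 was at 1689 ± 77.0 and 1472 ± 215 CPM and MT-ND6 at 716 ± 47.9 and 623 ± 77.8 CPM, and without T24R2 replicate 3 their log2 fold changes were -0.29 and -0.27. None of these 4 genes was called. MT-ND3 was at 361 ± 20.1 and 363 ± 73.0 CPM, with T24R2 replicate 3 the lowest at 252.3 CPM. MT-ND6 lies on the other strand, and its reads cannot be told apart from those of transcripts opposite to it, because the kit is not described as strand-specific although counting used strand.

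MT-ATP6, which forms the proton channel of complex V (ENSG00000198899.2, chrM:8527-9207), had 1348, 1342, 1259, 1175 and 1238 CPM in T24 and 1533, 1626, 2202, 1696 and 1752 CPM in T24R2. The lines did not overlap, and its log2 fold change was 0.47 (SE 0.06, adjusted p = 2.5e-09). It passed the minimum without T24R2 replicate 1 or 2 (0.52 and 0.50), and moved to 0.38 without T24R2 replicate 3. MT-ATP8, from the same mRNA, was at 35.3 ± 2.90 and 35.7 ± 4.37 CPM. MT-ATP6 and MT-CO3 are cut from the transcripts as neighbours, and the gene order MT-CO2, MT-ATP8, MT-ATP6, MT-CO3, MT-ND3 thus ran through log2 fold changes of -0.45, 0.02, 0.47, 1.03 and 0.01.

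The shares of the 13 mRNAs do not depend on library scaling, and they separated the lines for 7 of the 13 genes. MT-CO3 took 4.68% to 4.76% of the counts in T24 and 10.6% to 11.7% in T24R2, and MT-ATP6 took 5.16% to 5.35% and 8.15% to 8.90%. MT-CO1 took 36.7% to 37.8% and 31.3% to 32.8%, and MT-ND4 14.4% to 15.02% and 10.8% to 11.5%. T24R2 replicate 3 had the highest share of its line for MT-CO1, MT-ATP6 and MT-ND4 and the lowest for MT-CO3, and for none of these did it reach the T24 range. Its MT-ND3 share was 1.02%, against 1.80% to 2.43% in the other T24R2 libraries.

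**Figure D3:**
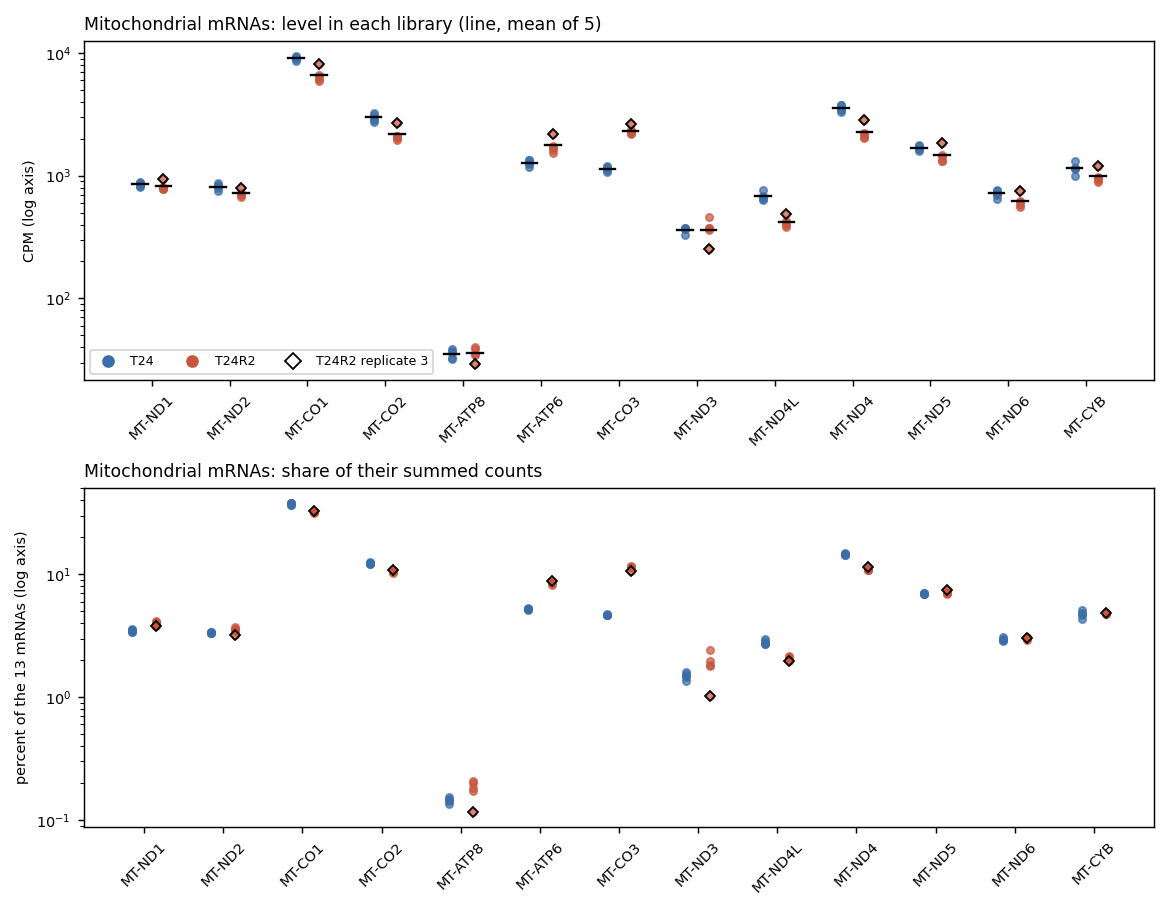
The upper panel gives CPM, and the lower panel the percent of the summed counts of the 13 mitochondrial mRNAs, for each library on log axes, with genes in map order and T24R2 replicate 3 as open diamonds. MT-CO3 separates the lines most clearly, at 1142 CPM on average in T24 and 2329 CPM in T24R2, and replicate 3 stands above its line in level for MT-CO1, MT-CO2 and MT-ND4, while its shares of these lie near its line and outside the T24 range.

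Adjacent mitochondrial genes overlap, and fragments over a shared base fall to neither gene in the default counting. The shared bases are shown because they bear on the levels of MT-ATP8, MT-ATP6, MT-CO3, MT-ND4L and MT-ND4. Capitals mark the bases that belong to both genes on the hg38 mitochondrial sequence, plus strand.
MT-ATP8 and MT-ATP6 (chrM:8515-8584): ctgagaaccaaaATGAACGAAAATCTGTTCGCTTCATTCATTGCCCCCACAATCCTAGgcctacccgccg
MT-ATP6 and MT-CO3 (chrM:9187-9227): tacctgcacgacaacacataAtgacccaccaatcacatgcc
MT-ND4L and MT-ND4 (chrM:10740-10786): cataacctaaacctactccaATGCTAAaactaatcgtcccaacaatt
The first pair shares 46 bases, which is 22.2% of MT-ATP8, the second shares 1 base and the third 7 bases. The level of MT-ATP8, 170 CPM per kilobase in T24 beside 1868 for MT-ATP6, is therefore not that of its whole reading frame.

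Other mitochondrial RNAs and nuclear copies were set beside these values. MT-RNR1 and MT-RNR2, the ribosomal RNAs, were lower in T24R2, with log2 fold changes of -0.72 and -0.54. Of the 8 mitochondrial tRNA genes with the most counts, 5 were called lower, from -1.20 for MT-TQ to -0.50 for MT-TP, and 3 higher, MT-TE at 2.17, MT-TT at 0.82 and MT-TY at 0.58. MT-TE had 16 to 171 counts a library. All of these tRNA genes except MT-TT lie on the same strand as MT-ND6. As for MT-ND6, their reads cannot be told apart from those of transcripts opposite to them. The 404 annotated nuclear copies of the mitochondrial mRNAs had 122 to 136 CPM in all in T24 and 73.4 to 115 CPM in T24R2, and the copy MTCO3P12 had at most 4.89 CPM, against 2168 to 2628 CPM of MT-CO3 in T24R2. Reads without a unique position were dropped, so these values do not show how many reads a gene lost to its copies. Summed over the 13 genes, mitochondrial mRNA was at 24291 ± 1177 CPM in T24 and 20583 ± 2426 CPM in T24R2, and nuclear subunit mRNA at 6500 ± 158 and 6748 ± 346 CPM. The ratio of mitochondrial to nuclear counts was 3.54 to 3.83 in T24 and 2.61 to 3.09 in T24R2, apart from replicate 3 at 3.94. With that library included the lines overlap.

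Some nuclear calls rest on genes that share exon bases with a neighbour on the opposite strand. This held over 10% of the bases for 16 of the 98 genes, among them the called genes NDUFB2, NDUFB9, ATP5PD, ATP5F1E and ATP5PF. ATP5F1E overlaps TUBB1, at a mean of 22.6 counts against 1846, and taking every TUBB1 count off left -0.84. ATP5PD overlaps KCTD2, which had 1009 counts against 1039 and a log2 fold change of -0.73, so the pair cannot be separated here. ATP5PF and GABPA start beside each other on opposite strands, with 615 and 766 counts and log2 fold changes of 0.58 and 0.71. NDUFB2, at a mean of 569 counts, overlaps NDUFB2-AS1 and BRAF, with 343 and 342 counts. Its log2 ratio was 0.37 with every count of NDUFB2-AS1 taken off and 1.32 with those of BRAF taken off. NDUFB9 overlaps TATDN1, with 576 counts against 1413 and a log2 fold change of 0.25. Its log2 ratio was -1.31 with every TATDN1 count taken off. It also overlaps MTSS1, with 1148 counts and a log2 fold change of -2.19. MTSS1 counts were not below those of NDUFB9 in every library, so no ratio was formed with them taken off. NDUFB9 and MTSS1 therefore cannot be separated here. Among the 62 tested subunit genes with at most 10% overlap on either strand, 9 rose and 3 fell, which is 14.5% and 4.84% beside 24.9% and 26.5% of all genes. The shares of all genes were not restricted by overlap. In a fit without genes overlapped over 10% from the opposite strand, 10 of 75 subunit genes rose and 7 fell. Of all 12345 genes in that fit, 3161 rose and 3314 fell.

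The difference of a nuclear subunit gene between the lines went with that of the genes around it. For 76 tested nuclear subunit genes with at least 3 other tested genes within 1 Mb, the log2 fold change and the median of those neighbours had Pearson's r of 0.59 and Spearman's rho of 0.59 across genes. Genes are not independent replicates, all values come from the same 10 libraries, and some windows share genes. The neighbour median had the sign of the subunit gene for 15 of the 19 called genes. The same values were not computed for other genes, so the relation is not shown to be particular to subunit genes. Around ATP5MC3 it was 1.58 over 22 genes, around COX5B 1.26 over 17 genes, around ATP5MF 0.96 over 44 genes, around ATP5PD -0.84 over 49 genes and around SDHD -0.65 over 15 genes. Around ATP5F1E it was -0.11, and around SDHA 0.17, where the genes themselves fell. On chromosome 2, all 6 subunit genes had positive values, beside a median of 0.37 over 1076 genes.

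**Figure D4:**
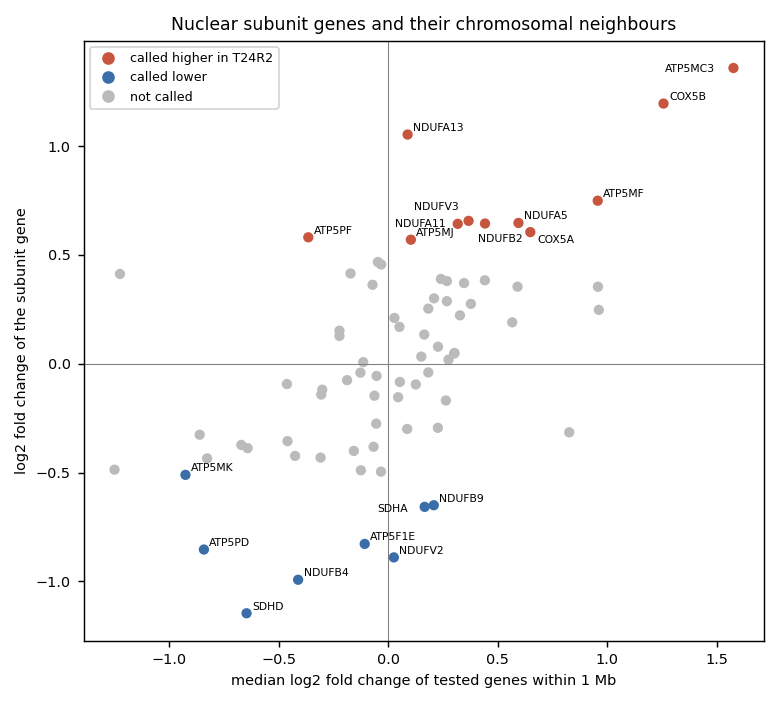
Each point is a nuclear subunit gene, with its own log2 fold change on the vertical axis and the median log2 fold change of other tested genes within 1 Mb on the horizontal axis. The 76 points run from lower left to upper right, with ATP5MC3 and COX5B at the far upper right, while ATP5PF, SDHA, NDUFB9 and NDUFV2 are called genes whose neighbours lie on the other side of 0.

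Nuclear subunit promoters are known for sites of NRF1, of ETS factors such as GABPA, and of YY1. RefSeq promoters of the GRCh38.p14 build, 300 bases long, matched 68 of the 85 nuclear genes by symbol. The letters GCGCA and GCGC with any base between them for NRF1, CCGGAAG for ETS factors and AAGATGGCG for YY1 were searched on both strands, and matches of different motifs did not overlap in these promoters. They occurred in 17, 20 and 8 of the 68 promoters (25.0%, 29.4% and 11.8%), against 11.6%, 19.0% and 3.91% of the 11061 promoters of genes tested, and 6.28%, 10.7% and 1.85% of 27305 promoters in all. The NRF1 letters were in 2 of 9 promoters of genes that rose, 3 of 7 that fell and 11 of 47 tested and not called, the ETS letters in 3, 3 and 14, and the YY1 letters in 1, 0 and 6. The windows below lie upstream of the start, outside annotated exons, and show the matches in capitals for 1 gene that rose and 2 that fell.
COX5B (chr2:97646010-97646046, plus strand): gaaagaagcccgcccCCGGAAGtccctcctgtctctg
NDUFB4 (chr3:120596162-120596297, plus strand): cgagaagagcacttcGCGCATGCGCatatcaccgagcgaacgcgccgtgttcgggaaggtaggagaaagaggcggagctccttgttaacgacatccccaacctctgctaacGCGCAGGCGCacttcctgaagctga
ATP5PD (chr17:75047049-75047085, minus strand): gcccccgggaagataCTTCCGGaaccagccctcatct
A match is a description of the letters and does not show that a factor binds there.

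Genes that build or serve the chain were called in both directions. Of 54 tested assembly and inhibitor factors, 10 rose and 12 fell, or 40.7% called against 51.4% of all genes, with a median of -0.04 beside 0.01. SDHAF3, an assembly factor of complex II, had the largest rise, from 7.63 ± 1.11 to 33.2 ± 2.36 CPM (log2 fold change 2.12, SE 0.10, adjusted p = 6e-21). LYRM7, which stabilizes the Rieske protein of complex III, went from 21.2 ± 1.47 to 68.4 ± 6.89 CPM (1.69), and UQCC2, another complex III factor, from 77.0 ± 2.90 to 46.1 ± 2.79 CPM (-0.74). For complexes II and III, 2 of 10 factors rose and 3 fell. For complex I, 2 of 16 rose and 4 fell: NDUFAF4 had a log2 fold change of 1.61, FOXRED1 of -0.74 and COA1 of -0.78. For complex IV, 6 of 23 rose and 4 fell, among them COA5 (1.35) and CMC1 (0.75) upward and the copper chaperone COX17 (26.4 ± 1.73 to 11.5 ± 1.299 CPM, -1.20) downward. ATP5IF1, the inhibitor of ATP synthase, was the 1 gene called among 5 factors of complex V. It had 72.0 to 88.6 CPM in T24 and 70.2, 58.3, 28.7, 53.9 and 49.3 CPM in T24R2 (-0.64), and -0.49, under the minimum, without replicate 3.

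Among 17 tested mobile carriers and genes of ubiquinone synthesis, 1 rose and 3 fell (23.5% called, against 51.4% of all genes). HCCS, which attaches heme to the cytochromes c, went from 34.2 ± 1.98 to 16.0 ± 0.892 CPM (-1.10), COQ8B had a log2 fold change of 1.24 and COQ2 of -0.52. The COQ2 call was lost without T24 replicate 4 (-0.49) or T24R2 replicate 5 (-0.47), without TMM scaling (-0.36), with upper-quartile scaling (-0.45) and among genes averaging 100 counts (-0.49). CYCS, cytochrome c itself, was at 74.5 ± 4.52 and 59.4 ± 5.998 CPM (-0.33, under the minimum). Of 6 paralogs and further subunits, HIGD1A rose (0.80) and 0 fell. COX7A2L had a value of 0.08, and NDUFA4L2, with 7 to 16 counts a library, one of -0.31 (adjusted p = 0.419).

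Of 16 tested regulators, 5 rose and 1 fell, which is 31.2% higher against 24.9% of all genes and 6.25% lower against 26.5%, with a median of -0.05. POLRMT, the RNA polymerase of mitochondria, went from 81.7 ± 3.02 to 37.2 ± 4.05 CPM (log2 fold change -1.14, SE 0.07, adjusted p = 8.1e-19). LRPPRC, which binds and stabilizes mitochondrial mRNAs, went from 109 ± 3.27 to 183 ± 10.7 CPM (0.75), and GABPA from 56.6 ± 5.31 to 92.6 ± 3.96 CPM (0.71). MTERF1 and PPARGC1B had the largest rises of the list, with log2 fold changes of 1.29 and 1.26. PPARGC1B had 5 to 52 counts a library, an SE of 0.30 and overlapping lines, at 0.538 to 3.43 CPM in T24 and 2.69 to 5.11 CPM in T24R2. TFAM, which packs mitochondrial DNA and starts its transcription, was at 73.0 ± 3.92 and 57.5 ± 3.56 CPM (-0.34, under the minimum). PPARGC1A, a coactivator of mitochondrial biogenesis, had 1 to 5 counts in T24 and 0 in T24R2 and was not tested. Among 13 citric acid cycle enzymes, in the cycle that complex II belongs to, 2 rose and 3 fell (38.5% called, against 51.4% of all genes): SUCLG2 had a log2 fold change of -1.37, citrate synthase, CS, of -0.75 and DLD of 0.79.

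**Figure D5:**
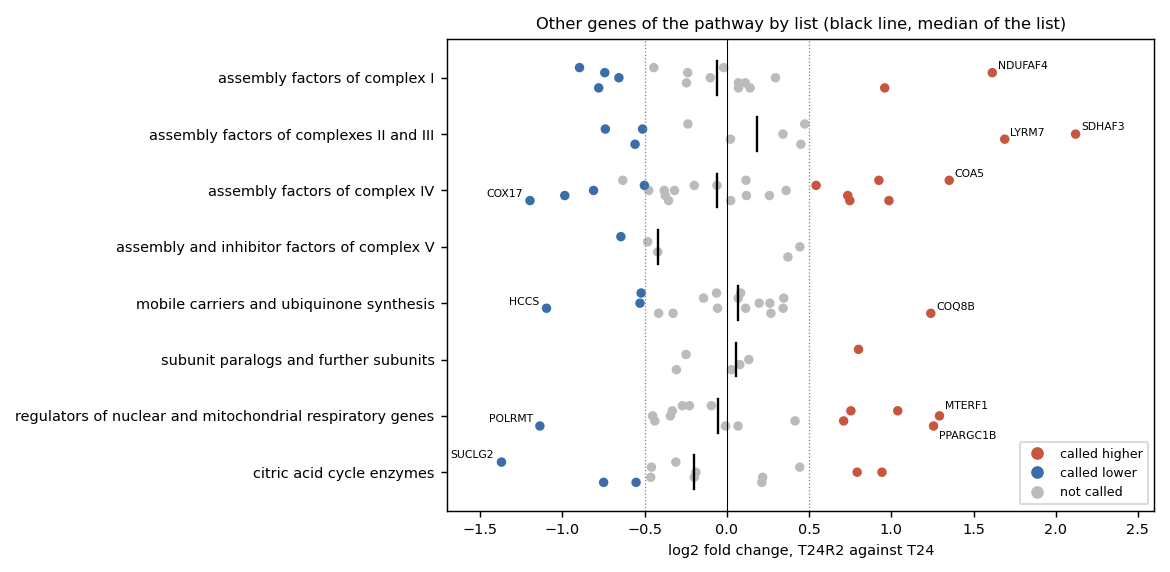
Each point is a tested gene of 1 of 8 lists of assembly factors, carriers, paralogs, regulators and citric acid cycle enzymes, with its log2 fold change on the horizontal axis, dotted lines at the minimum of 0.5 and a black bar at the median. Called genes lie on both sides in 6 of the 8 lists, and SDHAF3 at 2.12 is farthest to the right.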

How the data were processed

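RNA-seq libraries of T24 (n = 5) and T24R2 (n = 5) were used, grouped by their labels. The authors used STAR (2.7.0) for alignment to hg38 and SAMtools (1.10) to drop duplicates and reads without a unique position, and deposited counts per gene from featureCounts (2.0.1, strand option 1, GENCODE 39). Duplicate removal can lower abundant mRNAs, and reads from near-identical copies are lost. Values here start from these deposited counts, and 0 other columns of per-sample values were left out. Symbols came from the reference gene table and biotypes from GENCODE 44. Genes were filtered with filterByExpr and tested with the quasi-likelihood test of edgeR (4.0.16, R 4.3.3), with TMM scaling and Benjamini-Hochberg adjustment over 16181 genes. Calls needed an adjusted p below 0.05 together with a log2 fold change above 0.5 or below -0.5. The script was tested on simulated data. Levels per kilobase divide CPM by all annotated exon bases of a gene, which can exceed the length of its mRNA. Ranks and shares by this measure therefore depend on the annotation. Exon overlaps used bedtools (2.31.1), and exact permutation tests SciPy (1.17.1).

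The subunit genes, the other gene lists and the rule for named genes were chosen with earlier results of these data known. The rule took all mitochondrial mRNAs, for each complex the 2 largest rises and falls among called nuclear genes and the highest level per kilobase, isoform sets, up to 3 called genes per list by adjusted p, and NDUFA4L2, COX7A2L, ATP5IF1, CYCS, TFAM and PPARGC1A. Other genes were named after their values were seen. Alternatives were other normalizations, DESeq2 (1.42.0), limma-voom (limma 3.58.1), filters, thresholds, a replicate block and leaving out each library. Depth limits precision for the few subunit genes with under 100 counts.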

Additional observations from a re-analysis of the deposited data

Results flagged for a closer look

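In groups of 5 libraries, the gap of the highest or lowest library to its nearest neighbour was compared with the range of the group (Dixon's criterion, 0.71). Of 126 groups tested, 10 were past it, where chance alone gives about 6.3. T24R2 replicate 3 gave 5 of them: it was high for MT-ND1 (937.67 CPM), MT-CO2 (2683.9 CPM), MT-ND4 (2837.0 CPM) and MT-ND5 (1839.7 CPM), and low for SDHD (23.514 CPM). Without that library the log2 fold changes were -0.10 for MT-ND1, -0.53 for MT-CO2, -0.73 for MT-ND4, -0.29 for MT-ND5 and -1.08 for SDHD. In T24, replicate 3 was low for MT-ND3 (326.57 CPM), replicate 1 was high for ATP5MC3 (104.73 CPM) and low for CYCS (66.738 CPM), and replicate 5 was low for SDHAF3 (5.7243 CPM). T24R2 replicate 4 was high for ATP5F1B (422.96 CPM).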

How the results depend on the processing

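With TMM scaling, 12 subunit genes were called higher and 10 lower. Without it, 24 were higher and 6 lower, of all genes 5206 and 3431, the mitochondrial mRNAs gave 2 higher and 1 lower, and 18 of the 22 calls remained (ATP5MK, MT-ND4, NDUFB9 and SDHA were lost). Upper-quartile scaling gave 15 and 9, with 2 mitochondrial mRNAs higher and ATP5MK lost. With no minimum fold change the counts were 33 and 36 (mitochondrial 2 and 8), and with a minimum of 1 they were 4 and 1 (mitochondrial 1 and 0). DESeq2 gave 12 and 12, limma-voom 12 and 11, no count filter 12 and 11, a mean of 100 counts 11 and 8, removal of mitochondrial genes 11 and 8, and removal of genes overlapped from the opposite strand 10 and 7. Leaving out 1 library gave 12 to 13 higher and 10 to 15 lower, and 1 to 2 mitochondrial mRNAs higher and 2 to 4 lower. The highest count, 15 lower, was without T24R2 replicate 1, and the 4 mitochondrial mRNAs were without T24R2 replicate 3. Over 61 named genes and the alternatives, 1199 values were compared: 1170 stayed on the same side of the thresholds, 20 passed them, 9 no longer did and 0 changed direction among called values. Beyond the alternatives' own construction, the cause was not tested. With the replicate number as a block, 12 were higher and 11 lower, COX8A (-0.51) being the gain. Libraries with the same number did not deviate together over the genes tested (correlations of 0.0066, 0.0144, 0.0057, -0.018 and -0.0187). The counts thus gave no sign that the numbers pair the samples, but an effect shared by few genes would not show here. Genes with under 50 counts, such as NDUFA13 and NDUFV2, are limited by depth.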
